A study of Mus musculus with 40 samples.

Results

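Splenic B cells of Bank1-/- mice were compared with those of WT mice after 48 h of culture with CpG, across all genes measured. The members were the arrays whose sample titles gave 48 h and either genotype, 10 of the 40 arrays of the series, 5 labelled Bank1-/- and 5 labelled WT, each given as a biological replicate. The whole series held 8 groups of 5 arrays, formed by genotype and by 0, 6, 24 or 48 h of CpG, and its title speaks of IL6, of genes induced by type I interferon, of p38 and of the complex around eIF4E that starts translation. The Bank1-/- group came from a line that had been crossed back to C57BL/6 for 9 generations, and its cells received CpG for 48 h. The WT group had the same culture, and its mice were C57BL/6, with littermates and bought C57BL/6J animals both named as sources and no statement of which gave the arrays. Age and sex of the animals are not given in the sources used here, and no group cultured for 48 h without CpG was analysed here. B cells had been enriched from spleen with magnetic beads that hold back other cells, usually to more than 95% B220+CD3-.

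The product of Bank1 is a scaffold with ankyrin repeats, found mainly in B cells, which binds kinases and the inositol trisphosphate receptor after the B cell receptor is engaged and has also been tied to Toll-like receptor signalling. CpG DNA mimics bacterial DNA and is sensed in endosomes by Toll-like receptor 9, which acts through MyD88 on NF-kB and on the kinase p38. B cells so stimulated divide, secrete cytokines such as IL-6 and begin to differentiate toward plasma cells, and interferon made in the culture can induce a separate set of antiviral genes. The cap-binding protein eIF4E, phosphorylated by the MNK kinases downstream of p38, helps to recruit messenger RNA to the ribosome.

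Values below are normalized log2 intensities of Illumina bead array probes, and differences are Bank1-/- minus WT on that scale. The mean raw signal of an array was 397 ± 118 on the Bank1-/- arrays, ranging over 262 to 540, and 473 ± 50.7 on the WT arrays, ranging over 394 to 507 (SD, n = 5 each, exact permutation test, two-sided p = 0.238, adjusted p = 0.310). Between 14065 and 16592 probes were detected on Bank1-/- arrays and between 15808 and 16621 on WT arrays. With 5 arrays against 5 the smallest p an exact test can give is 0.00794. The mean correlation of an array with the others of its own genotype was 0.983 to 0.992, lowest in WT replicate 1, and 4 of the 10 arrays correlated better with the other genotype than with their own. Replicate 1 of WT stood apart in several genes below, and a number of results are given without it as well. Among the arrays of earlier times, replicate 5 of Bank1-/- at 0 h stood apart, with Il6 at 9.48 against 6.05 to 6.31 on the other 4 arrays of its group and Bank1 at 7.64 against 9.55 to 10.08. The B cell markers Cd79b, Ms4a1 and Cd22 were detected on all arrays of both genotypes, and Pax5, near background, on 2 of 5 Bank1-/- arrays and on all 5 WT arrays (means 6.31 and 6.44). None of 5 T cell markers (the CD3 chains, Cd4 and Cd8a) and none of 3 NK cell markers was detected. Other genes known from T or NK cells were detected on all 10 arrays, with Cd8b1 at 9.81 on Bank1-/- arrays and 9.71 on WT arrays, Il7r at 9.22 on Bank1-/- arrays and 9.39 on WT arrays and Prf1 at 10.97 on Bank1-/- arrays and 10.98 on WT arrays. Of 6 myeloid markers Adgre1 and of 3 dendritic cell markers Siglech were likewise detected on every array. Adgre1 was at 7.07 on Bank1-/- arrays and 7.21 on WT arrays, and Siglech at 7.58 on Bank1-/- arrays and 7.68 on WT arrays. Lyz2, the lysozyme gene among the myeloid markers, was near background at 6.28 on Bank1-/- arrays and 6.22 on WT arrays. Lyz1, another lysozyme gene, read 6.83 ± 0.11 on Bank1-/- arrays and 6.53 ± 0.08 on WT arrays (SD, n = 5 each) without passing the test below. What part such cells had in the results was not tested. Markers of plasma cell differentiation were mixed, with Xbp1 at 12.98 on Bank1-/- arrays and 12.72 on WT arrays and Sdc1 near background. Prdm1 was at 6.86 on Bank1-/- arrays and 6.92 on WT arrays, and Jchain at 6.56 on Bank1-/- arrays and 6.60 on WT arrays.

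After 48 h of CpG the 2 genotypes differed in few genes. Of 9483 genes tested, 16 passed the threshold, an adjusted p under 0.05 in a limma fit over all 40 arrays with Benjamini-Hochberg adjustment, which is 0.169% of the genes. Of these 9 rose in Bank1-/- cells (0.0949%) and 7 fell (0.0738%). The genes that rose were Gbp2b, Csprs, Pisd-ps3, Agrn, Slc4a8, Tgm2, Rap1gap2, Scamp1 and Ret, and those that fell were Bank1, Erdr1, 1700048O20Rik, Gbp2, Eif4e, Auts2 and App. Differences over all genes ran from -2.26 to 1.59 with a median of -0.0010 and with 5th and 95th percentiles of -0.21 and 0.22. Only 5 genes differed by more than 1 on the log2 scale, namely Bank1, Erdr1, 1700048O20Rik, Gbp2b and Slc15a2, the last of which did not pass. An unadjusted p under 0.05 was found for 260 genes, 2.74% of those tested. For 99.5% of genes the 95% interval of the difference lay within 1 on the log2 scale on either side of 0, which bounds the size of difference these arrays leave room for. The arrays of the 2 genotypes did not overlap for 155 genes (1.63%), all 16 genes past the threshold among them. Without WT replicate 1, 11 genes passed the threshold, all 11 among the 16. When arrays were scaled to a common median in place of quantile normalization, the median of all genes moved to -0.24 and 7 genes passed, of which 14.3% were higher in Bank1-/- cells, against 56.2% here.

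**Figure D1:**
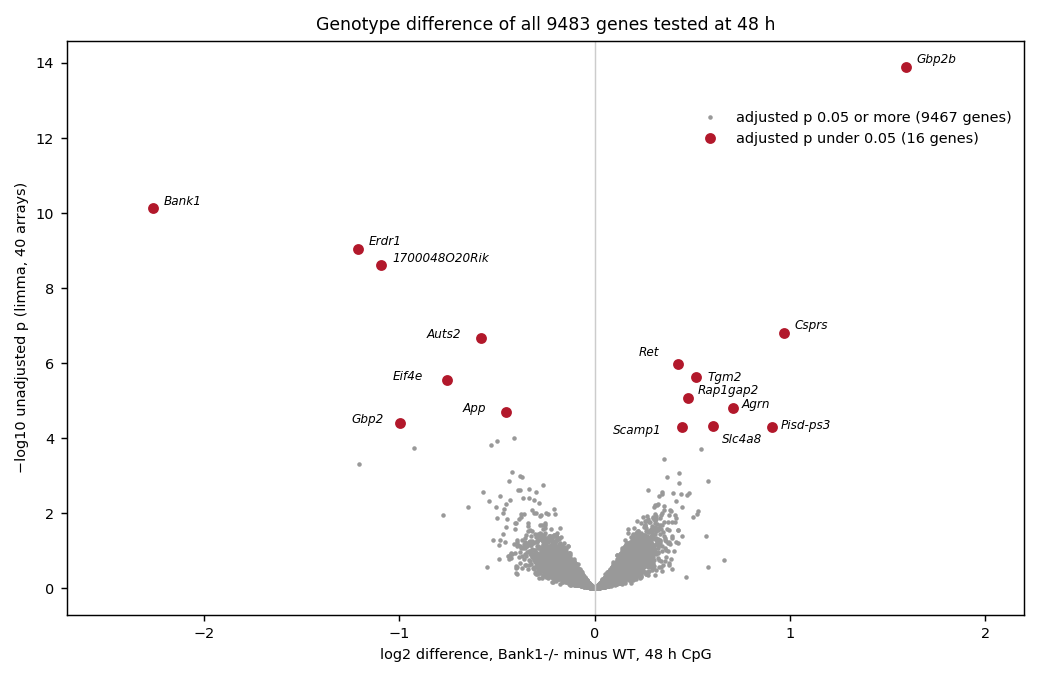
Each point is 1 of 9483 genes, with the log2 difference (Bank1-/- minus WT at 48 h) on the x axis and the −log10 of the unadjusted p on the y axis, and the 16 genes past the threshold are in red. Gbp2b stands alone at 1.59 on the higher side and Bank1 at -2.26 on the lower side, while the 5th and 95th percentiles of all genes are -0.21 and 0.22.

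Bank1 itself was the gene with the largest difference. Its single probe read 8.94, 8.99, 9.08, 8.64 and 8.77 in Bank1-/- replicates 1 to 5, against 11.04, 11.07, 11.31, 11.43 and 10.89 in the WT replicates. The groups were far apart, and the probe was still detected on all 5 Bank1-/- arrays. Bank1 fell by 2.26 ± 0.25 (SE), a 4.80-fold lower signal (limma, adjusted p = 3.53e-07). Where the probe lies relative to the altered part of the allele is not given in the sources used here, so the remaining signal does not tell whether transcript was left.

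A further 3 genes past the threshold lie on chromosome 3 within 10 Mb of Bank1, and they fell on both sides of 0. Gbp2b, which older annotation calls Gbp1, encodes a guanylate-binding protein, an interferon-inducible GTPase of cell-autonomous defence. It read 7.91, 8.00, 7.86, 7.75 and 7.99 on Bank1-/- arrays and 6.19, 6.35, 6.33, 6.26 and 6.42 on WT arrays. All 5 Bank1-/- arrays detected it, while 3 of the 5 WT arrays did, so the WT level was at the edge of background. Gbp2b rose by 1.59 ± 0.13 (SE), which is 3.02-fold (adjusted p = 1.20e-10).

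Its neighbour Gbp2, another interferon-inducible guanylate-binding protein, moved the other way. Gbp2 read 8.20, 8.40, 8.32, 7.98 and 8.26 on Bank1-/- arrays and 9.25, 9.25, 9.26, 9.18 and 9.21 on WT arrays, with no overlap and a very narrow WT group. The difference was -0.997 ± 0.214 (SE, 2.00-fold lower, adjusted p = 0.0288). Its standard error was 0.0844 when the 48 h arrays were fitted alone, where the adjusted p was 1.46e-05. The call was lost when any 1 array at 48 h other than Bank1-/- replicate 2 was left out, with adjusted p = 0.0826 without WT replicate 1, while the difference stayed between -1.32 and -0.89 under every alternative run. Gbp3, a further member of the family beside them, read 9.62 ± 0.19 on Bank1-/- arrays and 10.11 ± 0.14 on WT arrays (SD, n = 5 each). Its difference of -0.49 did not pass (adjusted p = 0.731), though the arrays did not overlap and its other detected probe gave -0.37. Gbp5 and Gbp7 differed by -0.17 and -0.11 without passing. Guanylate-binding proteins are close paralogs, and how far a probe for one takes up transcript of another was not tested.

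Gbp2b was higher and Gbp2 lower in Bank1-/- cells past the threshold, while the difference of Gbp3 was negative without passing. For this reason the promoters of these neighbours, known as interferon targets, are shown. They are RefSeq windows of 300 bases on the plus strand of GRCm38.p6, from 250 bases before to 50 after the start of the gene, and capitals mark matches to GAAA, any 2 bases and GAAA again, searched on both strands, the core letters of the element bound by interferon-activated factors.
Gbp2b, chr3:142594597-142594896: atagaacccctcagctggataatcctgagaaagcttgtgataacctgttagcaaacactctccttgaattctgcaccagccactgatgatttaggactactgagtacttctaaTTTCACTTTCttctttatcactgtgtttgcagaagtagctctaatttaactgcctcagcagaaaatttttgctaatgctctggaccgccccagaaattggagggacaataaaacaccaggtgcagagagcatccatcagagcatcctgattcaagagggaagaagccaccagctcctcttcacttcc
Gbp2, chr3:142620413-142620712: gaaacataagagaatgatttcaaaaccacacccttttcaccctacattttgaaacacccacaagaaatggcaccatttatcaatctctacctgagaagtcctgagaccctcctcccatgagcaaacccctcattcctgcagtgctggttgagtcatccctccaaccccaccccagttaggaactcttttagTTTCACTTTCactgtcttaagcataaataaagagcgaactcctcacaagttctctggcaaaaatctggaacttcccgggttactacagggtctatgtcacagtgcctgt
Gbp3, chr3:142559794-142560093: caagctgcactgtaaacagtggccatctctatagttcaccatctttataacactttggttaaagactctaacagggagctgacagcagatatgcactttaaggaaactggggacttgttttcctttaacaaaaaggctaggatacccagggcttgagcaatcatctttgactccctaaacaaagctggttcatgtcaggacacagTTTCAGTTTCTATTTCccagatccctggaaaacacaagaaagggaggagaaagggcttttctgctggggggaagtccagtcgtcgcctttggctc
The Gbp2b and Gbp2 windows each held 1 match, and both read GAAAGTGAAA on the minus strand. It began 137 bases before the start of Gbp2b and 59 bases before that of Gbp2. The Gbp3 window shown held 2 matches that overlap, and another Gbp3 window, not shown, held no match. Among all 32851 promoter windows, 1131 held such a match (3.44%). Counted by gene, with any window taken, 3.99% of genes had a match. All 5 Gbp genes tested near Bank1 had one, and of the 16 genes past the threshold 10 had a window and Gbp2b and Gbp2 alone matched. In this reference sequence the same 10 letters stood before a gene that was higher and a gene that was lower in Bank1-/- cells. The promoter sequence of the Bank1-/- line was not examined, and what part the element had was not tested.

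Eif4e, which encodes the cap-binding protein named in the title of the study, also lies near Bank1. It read 6.23, 6.27, 6.39, 6.54 and 6.15 on Bank1-/- arrays and 7.25, 7.18, 6.89, 6.997 and 7.03 on WT arrays. The groups did not overlap, and the probe was detected on 3 of the 5 Bank1-/- arrays and on all WT arrays. Eif4e fell by 0.76 on the log2 scale (SE 0.14, 1.69-fold lower, adjusted p = 0.00298), and the call held under all alternatives run, with an adjusted p of at most 0.0498. A single probe represented the gene, so a second probe could not be set beside it.

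Of 297 reference genes within 10 Mb of Bank1, 47 were tested and 4 passed, beside 0.169% of all genes tested. Apart from Bank1, 14 of the 46 others had positive and 32 negative differences, with a median of -0.09 beside -0.0010 over all genes. Over all 47, Bank1 included, the median was -0.099, and -0.062 without WT replicate 1. Manba, the lysosomal beta-mannosidase and the nearest tested gene on one side, differed by -0.31 without passing (adjusted p = 0.847). Ppp3ca, a calcineurin subunit and the nearest on the other side, differed by -0.02. Arrays of the genotypes did not overlap for 7 of the 46, beside 1.63% of all genes, and Gbp2b alone of the 7 was higher. Most differences along the interval were thus negative, and Gbp2b was the only one of the 47 that was higher past the threshold. Every Bank1-/- array comes from the same line, so an effect of DNA that accompanied the altered allele cannot be told apart here from an effect of lacking Bank1.

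**Figure D2:**
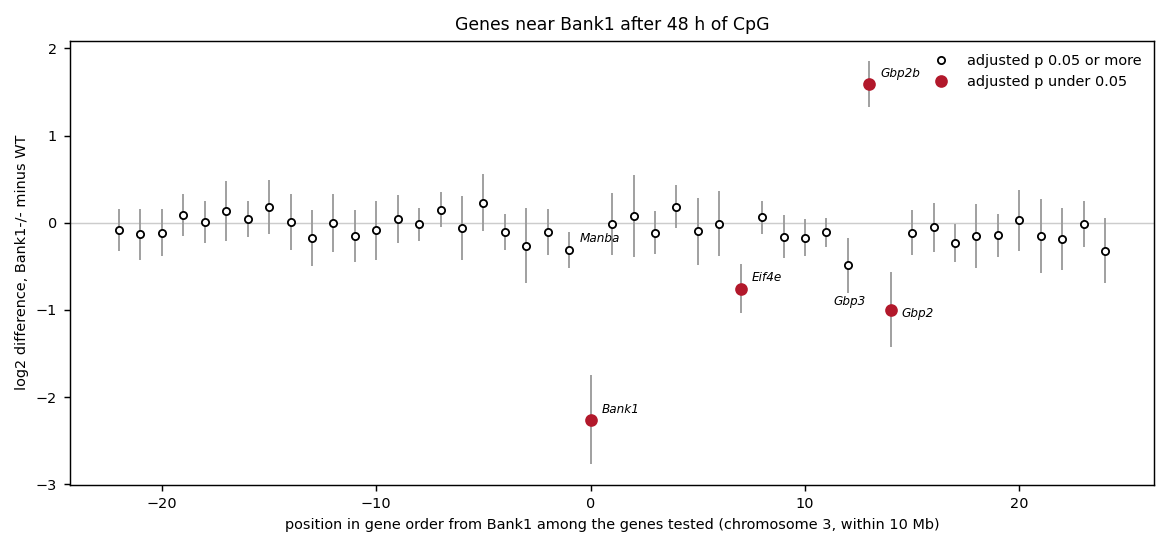
Points are the 47 tested genes within 10 Mb of Bank1 on chromosome 3, in gene order on the x axis with Bank1 at 0, and the y axis gives the log2 difference (Bank1-/- minus WT at 48 h) with its 95% interval. The 4 genes in red passed the threshold, Gbp2b at 1.59 above 0 and Bank1, Gbp2 and Eif4e below it at -2.26, -0.997 and -0.76.

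Elsewhere in the genome 8 genes rose in Bank1-/- cells, each by less than 1 on the log2 scale. Csprs, a multicopy gene related to the nuclear body protein Sp100, read 9.02, 8.88, 8.58, 9.10 and 9.32 on Bank1-/- arrays and 8.11, 7.79, 8.06, 7.85 and 8.25 on WT arrays. It rose by 0.97 ± 0.15 (SE, adjusted p = 2.91e-04), with a gap between the groups. Copies of this repeat on chromosome 1 are near-identical, so which of them gave the signal is uncertain. Pisd-ps3, a pseudogene of the phosphatidylserine decarboxylase gene, averaged 8.75 ± 0.27 on Bank1-/- arrays and 7.84 ± 0.24 on WT arrays (SD, n = 5 each, difference 0.91, adjusted p = 0.0295). Its second detected probe gave -0.05, so the 2 probes of this pseudogene did not move together. The call was lost when any 1 array other than Bank1-/- replicate 4 or WT replicate 1 was left out, with an adjusted p of up to 0.1505.

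The other 6 genes that rose encode proteins of the membrane, of signalling or of the cell surface. Agrn encodes agrin, a heparan sulfate proteoglycan best known from the neuromuscular junction. It read 8.28, 8.41, 8.24, 8.37 and 8.68 on Bank1-/- arrays and 7.34, 7.78, 7.71, 7.68 and 7.94 on WT arrays, with no overlap. The difference was 0.71 ± 0.14 (SE, adjusted p = 0.0136), and 0.62 without WT replicate 1, the lowest array, where it did not pass (adjusted p = 0.0991). It was 0.64 without Bank1-/- replicate 5, the highest array, and did not pass there either (adjusted p = 0.0875).

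Slc4a8, a sodium-driven bicarbonate exchanger, averaged 8.31 ± 0.11 on Bank1-/- arrays and 7.71 ± 0.19 on WT arrays (SD, n = 5 each, difference 0.61, adjusted p = 0.0295). Its other detected probes gave 0.24 and 0.31, lower but of the same sign. The call was lost when any 1 array other than Bank1-/- replicate 3 or WT replicate 3 was left out, and without WT replicate 1 the difference was 0.52 (adjusted p = 0.234). Tgm2, the tissue transglutaminase that crosslinks proteins, read 7.99, 8.12, 8.11, 7.87 and 7.88 on Bank1-/- arrays and 7.39, 7.53, 7.54, 7.42 and 7.49 on WT arrays. The groups were tight and separate, and Tgm2 rose by 0.52 ± 0.09 (SE, adjusted p = 0.00279). Ret, the receptor tyrosine kinase for ligands of the GDNF family, read 7.07, 7.17, 7.01, 7.35 and 7.09 on Bank1-/- arrays and 6.64, 6.86, 6.72, 6.74 and 6.58 on WT arrays. It rose by 0.43 ± 0.07 (SE, adjusted p = 0.00138), the smallest difference among the 16, and a dimmer second probe gave 0.25.

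Rap1gap2, a GTPase-activating protein for Rap1, read 8.53, 8.67, 8.60, 8.69 and 8.33 on Bank1-/- arrays and 7.75, 8.15, 8.18, 8.15 and 8.18 on WT arrays. WT replicate 1 lay well below the other WT arrays, and the difference of 0.48 (SE 0.09, adjusted p = 0.00800) was 0.40 without it and did not pass (adjusted p = 0.0796). Scamp1, a carrier protein of secretory membranes, averaged 7.02 ± 0.08 on Bank1-/- arrays and 6.57 ± 0.08 on WT arrays (SD, n = 5 each, difference 0.45, adjusted p = 0.0295), and the call was lost when any 1 array other than Bank1-/- replicate 4 or WT replicate 5 was left out, with 0.42 and an adjusted p of 0.143 without WT replicate 1. With arrays scaled to a common median, the median of all genes was -0.24. The 8 differences were then smaller but positive, and none of the 8 passed. They were 0.15 for Rap1gap2, 0.27 for Tgm2, 0.28 for Ret and 0.32 for Slc4a8. Scamp1 had 0.37, Agrn 0.43, Pisd-ps3 0.60 and Csprs 0.62.

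Apart from the 3 genes on chromosome 3, 4 genes fell. Erdr1, the erythroid differentiation regulator encoded at the edge of the pseudoautosomal part of the sex chromosomes, read 11.14, 11.20, 10.91, 10.97 and 11.23 on Bank1-/- arrays and 11.69, 12.60, 12.38, 12.39 and 12.45 on WT arrays. WT replicate 1 was again the odd array, closer to the Bank1-/- arrays than to the other WT ones. Erdr1 fell by 1.21 ± 0.15 (SE, 2.32-fold lower, adjusted p = 2.82e-06), and by 1.36 without that replicate. Its second probe gave -0.51 and did not pass in a fit of single probes (adjusted p = 0.844).

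1700048O20Rik, a gene without a named function on chromosome 9, read 6.54, 6.63, 6.70, 6.56 and 6.52 on Bank1-/- arrays and 8.43, 7.43, 7.50, 7.39 and 7.65 on WT arrays. Here WT replicate 1 was the highest, and the gene fell by 1.09 ± 0.14 (SE, adjusted p = 5.79e-06), or by 0.90 without that array (adjusted p = 9.80e-06). Auts2, a nuclear protein with roles in transcription that is best known from neurons, read 6.73, 6.59, 6.70, 6.34 and 6.39 on Bank1-/- arrays and 7.19, 7.20, 7.06, 7.28 and 6.92 on WT arrays. It fell by 0.58 ± 0.09 (SE, adjusted p = 3.43e-04), and 3 further probes of the gene were detected on 0 arrays. App, the membrane protein from which amyloid beta is cut, averaged 6.996 ± 0.102 on Bank1-/- arrays and 7.45 ± 0.10 on WT arrays (SD, n = 5 each). The difference of -0.45 passed (adjusted p = 0.0155), although a second, barely detected probe gave -0.07. It did not pass without Bank1-/- replicate 1 or 5 or WT replicate 2, 3 or 4, where the adjusted p was at most 0.0875 and the difference between -0.45 and -0.42.

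**Figure D3:**
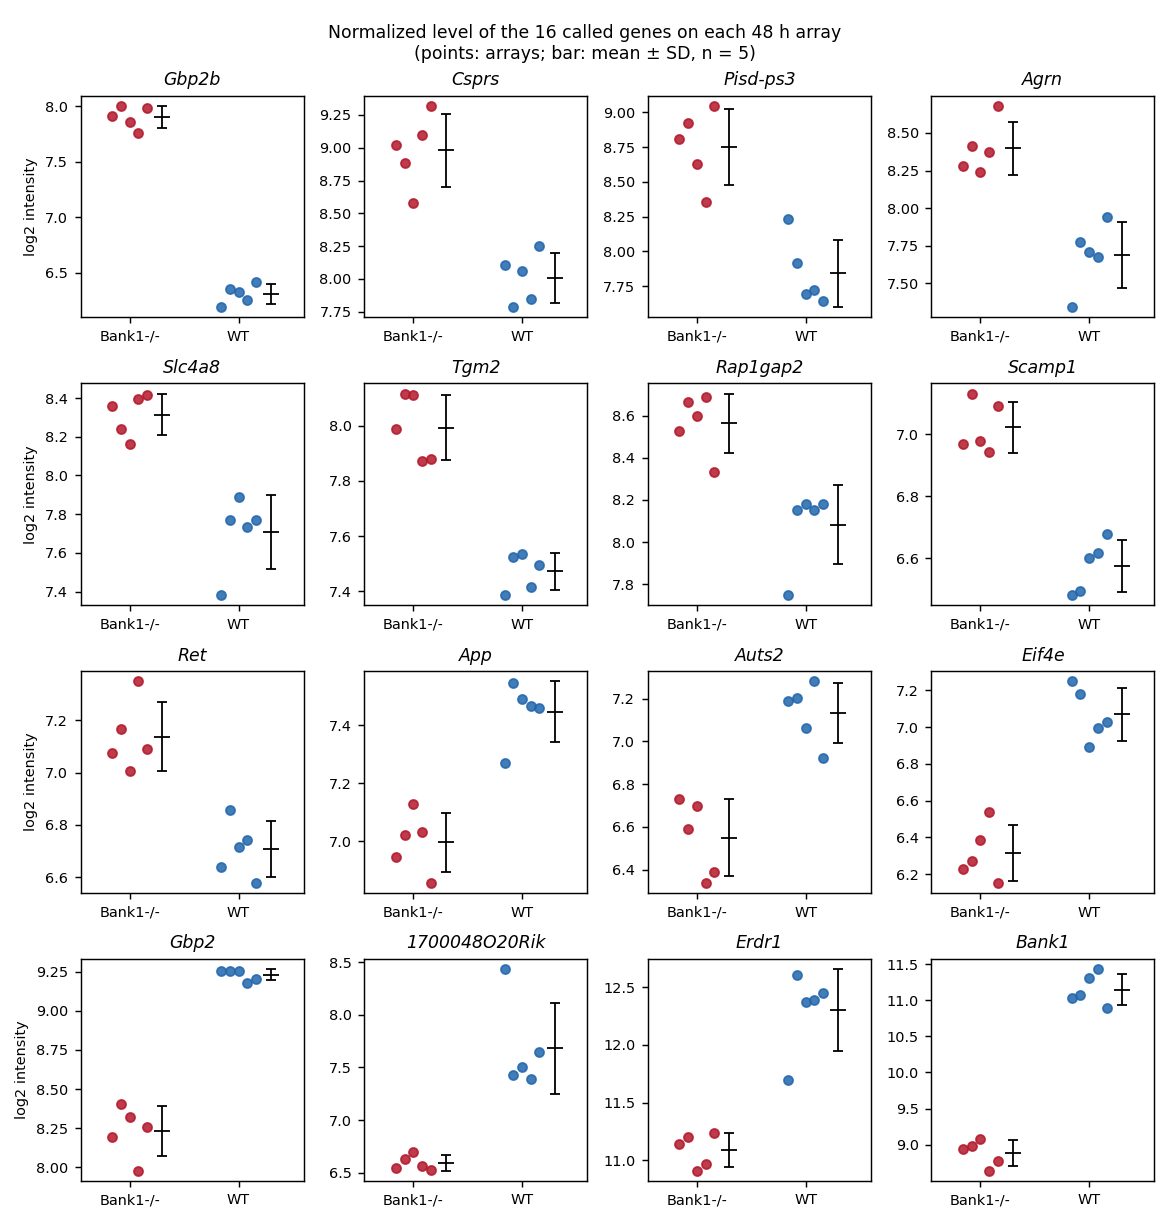
Each panel is 1 of the 16 genes past the threshold, with normalized log2 intensity on the y axis, the 5 Bank1-/- arrays as red points on the left, the 5 WT arrays as blue points on the right, and bars for the mean ± SD. In every panel the groups do not overlap, and WT replicate 1 (the leftmost blue point) lies apart for Erdr1 at 11.69, 1700048O20Rik at 8.43 and Rap1gap2 at 7.75.

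The same 16 genes were followed over the earlier times, at which other arrays were used. Over all genes the genotypes differed in 145 genes at 0 h (1.53%), in 2094 at 6 h (22.1%) and in 10 at 24 h (0.105%). Without Bank1-/- 0 h replicate 5, 114 genes differed at 0 h. At 6 h the mean raw signal was 290 to 511 on Bank1-/- arrays, against 145.7 to 232 on 4 of the WT arrays and 455 on the other, and 362 genes differed at 6 h once array brightness was a covariate. Of the 16 genes, 4 passed at 0 h, 7 at 6 h and 3 at 24 h. Bank1 and Eif4e were lower in Bank1-/- cells past the threshold at all 4 times. Bank1 levels were lowest at 6 h in both genotypes, with 9.42, 6.73, 7.63 and 8.89 in Bank1-/- cells at 0, 6, 24 and 48 h and 11.26, 7.73, 10.05 and 11.15 in WT cells. The genotype difference of Bank1 was larger at 48 h than at 6 h by 1.27 on the log2 scale (difference of differences -1.27, adjusted p = 0.0212). With array brightness as a covariate it was -0.88 and did not pass (adjusted p = 0.454), and at 6 h the probe was detected on 3 of 5 Bank1-/- arrays.

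Eif4e stayed near background in Bank1-/- cells at 6.28, 6.71, 6.27 and 6.31, while WT cells had 7.05, 7.84, 8.10 and 7.07 at 0, 6, 24 and 48 h. Its difference was thus -1.83 at 24 h and -0.76 at 48 h, and the change between these times passed (1.08, adjusted p = 0.00589). Gbp2b levels were above those of WT at each time, at 7.68, 7.47, 6.89 and 7.90 in Bank1-/- cells and 6.03, 6.24, 6.32 and 6.31 in WT cells, and no WT array detected it at 0 h. Its difference was larger at 48 h than at 24 h by 1.03 (adjusted p = 0.00589), and at 24 h it did not pass (adjusted p = 0.0813). Gbp2 had 8.51, 6.84, 6.70 and 8.23 in Bank1-/- cells and 8.65, 7.68, 7.53 and 9.23 in WT cells, so its level dipped at 6 and 24 h in both genotypes. Bank1-/- replicate 5 read 6.83 at 0 h and the other 4 arrays of its group 8.55 to 9.14. Without it the Bank1-/- mean at 0 h was 8.94, above that of WT (difference 0.28, adjusted p = 0.127), and the change of the genotype difference between 0 and 48 h passed (-1.28, adjusted p = 4.63e-09).

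Erdr1 changed sign from time to time. It had 12.51, 12.12, 12.02 and 11.09 in Bank1-/- cells and 11.71, 13.26, 11.17 and 12.30 in WT cells at 0, 6, 24 and 48 h. The differences were 0.80, -1.14, 0.86 and -1.21, each past the threshold at its own time. The difference at 48 h minus that at 0 h was -2.01 (adjusted p = 1.52e-07), and minus that at 24 h it was -2.07 (adjusted p = 6.97e-08).

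Several of the remaining genes had their highest level at 48 h in both genotypes. Ret was detected on no array at 0, 6 or 24 h and had 7.14 in Bank1-/- cells and 6.71 in WT cells at 48 h. Rap1gap2 had 6.59, 6.27, 7.05 and 8.56 in Bank1-/- cells and 6.54, 6.25, 6.88 and 8.08 in WT cells over the 4 times. Tgm2 had 6.59, 6.10, 6.45 and 7.99 in Bank1-/- cells and 6.64, 6.08, 6.27 and 7.47 in WT cells, and Slc4a8 had 6.65, 6.32, 6.79 and 8.31 in Bank1-/- cells and 6.52, 6.44, 6.41 and 7.71 in WT cells. These 4 genes were thus highest at 48 h in both genotypes, with the Bank1-/- level the higher one. Auts2 had 6.17, 6.08, 6.17 and 6.55 in Bank1-/- cells and 6.10, 6.04, 6.32 and 7.13 in WT cells, also highest at 48 h in both genotypes, with the WT level the higher one there. It was detected on no array at 0 or 6 h. At 24 h it was detected on 1 Bank1-/- and 2 WT arrays, and at 48 h on 4 Bank1-/- and 5 WT arrays. 1700048O20Rik had 6.58, 6.28, 6.91 and 6.59 in Bank1-/- cells and 6.62, 6.52, 6.89 and 7.68 in WT cells, so that its difference lay in a higher WT level at 48 h.

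Agrn had 7.04, 9.46, 7.52 and 8.40 in Bank1-/- cells and 6.57, 9.00, 7.31 and 7.69 in WT cells, highest at 6 h in both. The difference of genotype differences between 48 h and 0 h passed for 3 of the 16 genes (9 of all genes, 0.0949%), that between 48 h and 6 h for 9 of the 16 (1033 of all genes, 10.9%), and that between 48 h and 24 h for 4 of the 16 (4 of all genes, 0.0422%). When array brightness was a covariate in limma, 0 of the 16 passed between 48 h and 6 h (32 of all genes), and without Bank1-/- 0 h replicate 5, 5 of the 16 passed between 48 h and 0 h (28 of all genes), Gbp2 and Csprs in addition. The 16 were chosen with the 48 h arrays that enter these contrasts, so the counts describe them and test nothing further. 1700048O20Rik was the only gene that passed against all 3 earlier times, by -1.05, -0.85 and -1.11, although against 6 h it did not pass with array brightness as a covariate (-0.73, adjusted p = 0.217).

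**Figure D4:**
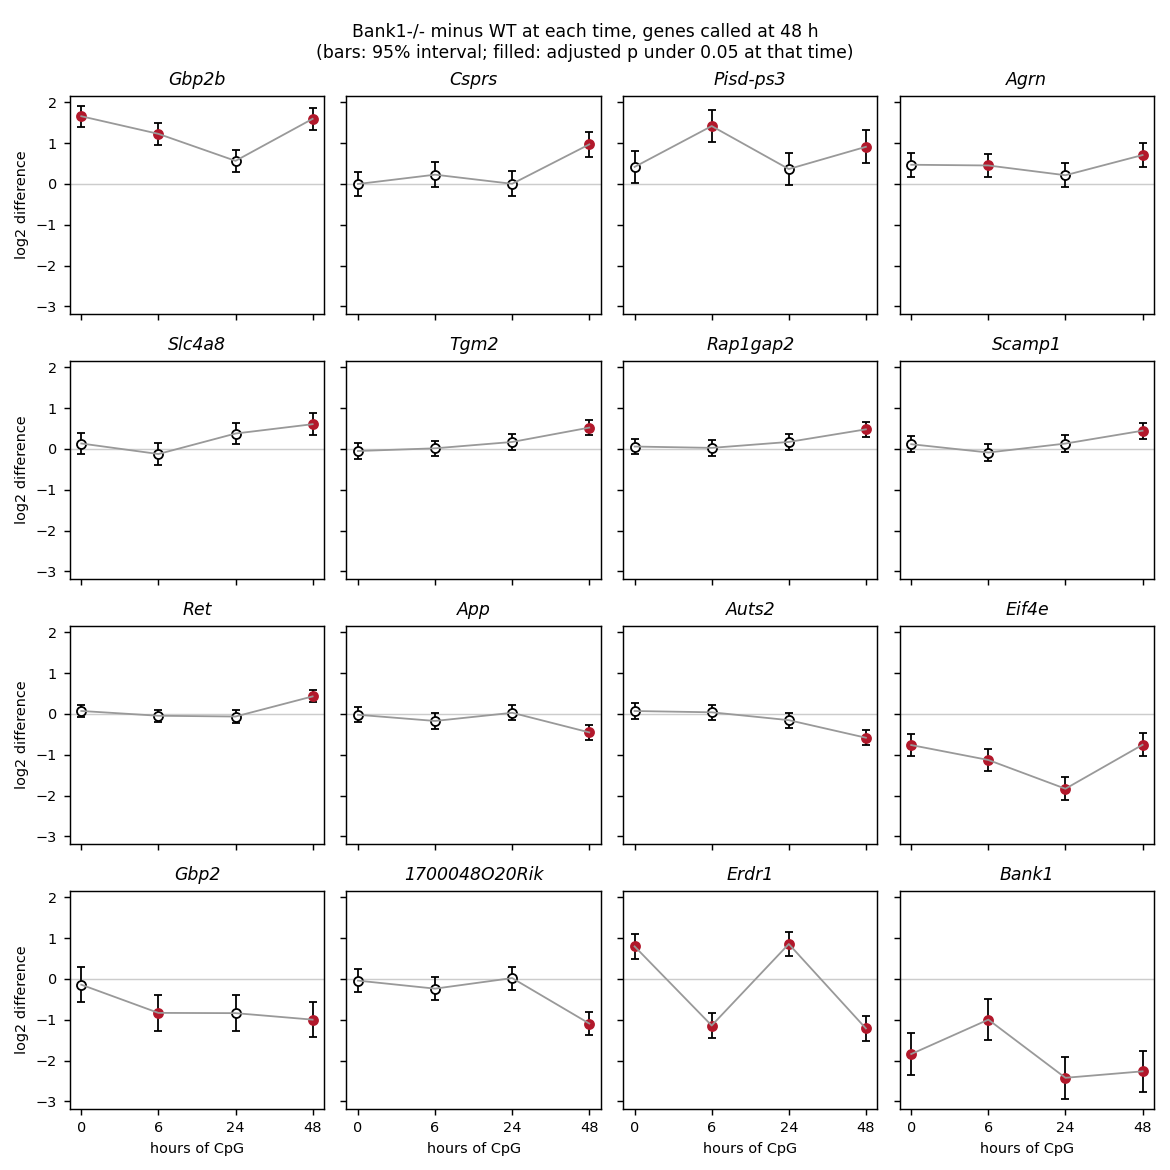
Each panel is 1 of the 16 genes, with hours of CpG on the x axis and the log2 difference (Bank1-/- minus WT) with its 95% interval on the y axis, and filled points passed the threshold at that time. Bank1 and Eif4e lie below 0 at all 4 times, Erdr1 alternates in sign, and Ret, Tgm2, Rap1gap2, Scamp1 and Auts2 leave 0 at 48 h.

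The arrays that share the estimate of spread affected which genes passed. When the 10 arrays at 48 h were fitted alone, 21 genes passed (0.221%), 14 of them among the 16, and Ret and Rap1gap2 did not. Slc15a2, a transporter of short peptides, was among the additional genes. It read 7.72, 7.65, 7.58, 7.45 and 7.39 on Bank1-/- arrays and 8.63, 8.66, 8.86, 8.99 and 8.68 on WT arrays, with a clear gap between the groups. Its difference was -1.20, with a standard error of 0.31 over all 40 arrays (adjusted p = 0.195) and 0.0936 over the 48 h arrays (adjusted p = 6.17e-06). Ide, the insulin-degrading enzyme, at -0.57, Gh, growth hormone, at -0.44 and Pisd-ps1, a second Pisd pseudogene, at 0.49 likewise passed among the 48 h arrays alone and not among all. Without 1 array of another group, Bank1-/- 0 h replicate 5, in the shared spread, 28 genes passed, all 16 among them, and Slc15a2 had an adjusted p of 3.82e-07. The median standard error of a gene's difference was 0.139 over all arrays and 0.0957 over the 48 h arrays.

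Other genes whose arrays did not overlap between the genotypes missed the threshold. On the higher side these were led by Xlr4a, an X-linked gene of lymphocytes, at 10.69 ± 0.26 on Bank1-/- arrays and 10.15 ± 0.14 on WT arrays (SD, n = 5 each, difference 0.55, adjusted p = 0.0888). Cacna1h, a T-type calcium channel, differed by 0.43, Psg23 by 0.41, Klhl17 by 0.35, Fkbp5, a co-chaperone of the glucocorticoid receptor, by 0.35, Hes6 by 0.32 and Trit1, which modifies transfer RNA, by 0.27. With arrays scaled to a common median, where the median of all genes was -0.24, Hes6 and Trit1 were on the other side of 0. On the lower side Susd1 came nearest, with 9.00 ± 0.06 on Bank1-/- arrays and 9.41 ± 0.15 on WT arrays (SD, n = 5 each, difference -0.41, adjusted p = 0.0544). Wls, needed to secrete Wnt proteins, differed by -0.50, Gm14325 by -0.92 and Cdo1, cysteine dioxygenase, by -0.38. Without WT replicate 1 the difference of Gm14325 was -0.68. The embryonic globin gene Hbb-bh1 read 7.65, 7.61, 7.83, 7.45 and 7.24 on Bank1-/- arrays and 8.83, 7.96, 7.85, 7.90 and 7.90 on WT arrays, with WT replicate 1 the highest. Its difference was -0.53 and did not pass (adjusted p = 0.0737), and it was -0.35 without WT replicate 1.

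Another globin gene was highest on the same array. Hbb-bs, adult beta globin, read 8.80, 8.13, 8.58, 8.67 and 8.67 on Bank1-/- arrays and 9.94, 8.80, 8.81, 8.55 and 9.16 on WT arrays, and the groups overlapped (difference -0.49, adjusted p = 1.00, and -0.26 without WT replicate 1). The mean over 7 measured erythroid genes was 7.28 to 7.36 on Bank1-/- arrays and 7.34 to 7.72 on WT arrays (exact permutation test, two-sided p = 0.0317, and 0.127 after Benjamini-Hochberg adjustment over the 4 array measures compared). Without WT replicate 1 the exact permutation p was 0.0635. Among the 7 genes 5 had negative and 2 positive differences. Of the defining erythroid markers Hbb-bs was detected on all 10 arrays, Hba-a1 and Alas2 were detected on none, and Slc4a1 on 1 WT array. Hba-a1 and Slc4a1, near background, differed by 0.18 and 0.04, opposite in sign to Hbb-bs. In bulk RNA, fewer cells of a type and less RNA per cell cannot be told apart. With the erythroid mean as a covariate 18 genes passed, 15 of them among the 16.

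Few genes passed at 48 h in the gene groups named in the title of the study, as over all genes (0.169%). At that share most lists of this size would hold no call, so a count of 0 does not set them apart. Counts at an unadjusted p under 0.05 in limma stand beside 2.74% of all genes. Il6 read 7.05, 7.39, 7.54, 7.32 and 7.49 on Bank1-/- arrays and 8.26, 7.51, 7.61, 7.95 and 7.46 on WT arrays. The groups overlapped, and the highest value was WT replicate 1. The difference was -0.40 with a 95% interval from -1.09 to 0.29 (adjusted p = 1.00), and -0.28 without that replicate. Il6 was past its peak by then in both genotypes, with 10.25 at 6 h and 9.52 at 24 h in Bank1-/- cells and 9.57 at 6 h and 9.90 at 24 h in WT cells. Among 20 measured cytokine and chemokine genes 0 passed in limma and 2 had an unadjusted p under 0.05, with a median difference of -0.0065. Csf1, the macrophage growth factor, had 7.32 ± 0.19 on Bank1-/- arrays and 6.99 ± 0.20 on WT arrays, and the chemokine Ccl5 had 6.76 ± 0.08 on Bank1-/- arrays and 6.34 ± 0.13 on WT arrays (SD, n = 5 each), with adjusted p = 1.00 for Ccl5.

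Of 44 measured interferon-inducible genes, Gbp2 alone passed, with 23 positive and 21 negative differences and a median of 0.03. An unadjusted p under 0.05 in limma was found for 4 of the 44, 1 higher and 3 lower, beside 2.74% of all genes. The arrays of the genotypes did not overlap for 3, all lower, beside 1.63% of all genes. The mean over these genes was 7.99 to 8.07 on Bank1-/- arrays and 8.02 to 8.08 on WT arrays (exact permutation test, two-sided p = 0.310, also after adjustment). Oas1g, which makes the activator of RNase L, read 6.94, 6.85, 7.05, 7.32 and 7.02 on Bank1-/- arrays and 7.53, 7.43, 7.28, 7.26 and 7.54 on WT arrays. A single Bank1-/- array lay within the range of the WT arrays, and the difference of -0.37 did not pass. Gbp2b was not a member of this list as drawn up, so its rise is not in the count.

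Genes of p38, MK2, MNK and mRNA decay gave 0 calls among 27 in limma (1 at an unadjusted p under 0.05), with 15 positive and 12 negative differences and a median of 0.0047. Mknk1, one of the MNK kinases that phosphorylate eIF4E, had 8.90 ± 0.30 on Bank1-/- arrays and 8.58 ± 0.15 on WT arrays (SD, n = 5 each, difference 0.32), and Tab1, an activator of TAK1 and p38, differed by 0.24. Neither passed. In the list of eIF4E and translation initiation Eif4e was the only 1 of 20 that passed, and the median was 0.0026. Eif4h, a helper of the helicase eIF4A, differed by 0.23, with WT replicate 1 at 11.54 and the other WT arrays at 12.05 to 12.23, and by 0.10 without that replicate. Among 35 genes of NF-kB and the Toll-like receptor response 0 passed in limma and 1 had an unadjusted p under 0.05. Map3k8, a kinase that couples Toll-like receptors to ERK, differed by -0.26 and Traf6, an adaptor of that pathway, by 0.21.

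Over all 29 lists, 546 distinct members outside the neighbourhood of Bank1 were measured and 0 passed in limma, either over 40 arrays or over the 48 h arrays alone. An unadjusted p under 0.05 was found for 16 of them (2.93%, beside 2.74% of all genes), and the genotypes did not overlap for 15 (2.75%, beside 1.63% of all genes). In 26 of the 29 lists the median difference lay within 0.1 of 0. B cell identity genes had 4 positive and 13 negative differences among 17, with a median of -0.09, and Ms4a1, which encodes CD20, had 8.59 ± 0.17 on Bank1-/- arrays and 8.82 ± 0.13 on WT arrays (SD, n = 5 each). Of 28 genes of B cell receptor signalling Bank1 alone passed, and Vav1 and Plcg2, which act next to the receptor, differed by 0.25 and 0.24 without passing. Genes of DNA replication (39 measured, median 0.07) and of mitosis (43 measured, median 0.03) had 0 calls in limma, and 0 members at an unadjusted p under 0.05. Pcna, the replication clamp, had 9.96 ± 0.40 on Bank1-/- arrays and 10.38 ± 0.37 on WT arrays (SD, n = 5 each) and overlapped.

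Class I presentation and the integrated stress response leaned one way without any member passing. Of 16 genes of MHC class I and the immunoproteasome 15 had positive differences, with a median of 0.20 beside -0.0010 over all genes. H2-K1, a class I heavy chain, had 11.95 ± 0.32 on Bank1-/- arrays and 11.59 ± 0.19 on WT arrays, Nlrc5, the activator of class I genes, had 7.95 ± 0.22 on Bank1-/- arrays and 7.67 ± 0.08 on WT arrays, and Psmb9, an immunoproteasome subunit, had 11.17 ± 0.08 on Bank1-/- arrays and 10.99 ± 0.08 on WT arrays (SD, n = 5 each). The groups overlapped for all 16, and the list median was 0.08 with array brightness as a covariate and -0.16 with arrays scaled to a common median, where that of all genes was -0.24. Of 28 genes of the integrated stress response and amino acid supply 23 had positive differences, with a median of 0.11, and -0.17 with median scaling. Among them Mars1 and Gars, which load methionine and glycine onto transfer RNA, differed by 0.38 and 0.25 and Trib3, a target of the stress factor CHOP, by 0.27.

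Genes of secretion and survival gave single values of similar size. Edem2, which sends misfolded proteins to degradation, had 10.39 ± 0.21 on Bank1-/- arrays and 10.00 ± 0.26 on WT arrays, and Xbp1, the transcription factor of plasma cell secretion, had 12.98 ± 0.10 on Bank1-/- arrays and 12.72 ± 0.18 on WT arrays (SD, n = 5 each). The death receptor Fas read 7.52, 7.67, 7.71, 7.64 and 7.64 on Bank1-/- arrays and 8.17, 7.87, 7.96, 7.87 and 7.90 on WT arrays, without overlap. Il2ra, the alpha chain of the IL-2 receptor, read 7.83, 8.02, 8.01, 7.82 and 7.68 on Bank1-/- arrays and 8.17, 8.19, 8.15, 8.11 and 8.26 on WT arrays, also without overlap. Their differences of -0.32 and -0.30 did not pass. Ddit4, a stress-induced brake on mTOR, differed by 0.47 and Scd2, a fatty acid desaturase, by 0.51, again without passing.

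**Figure D5:**
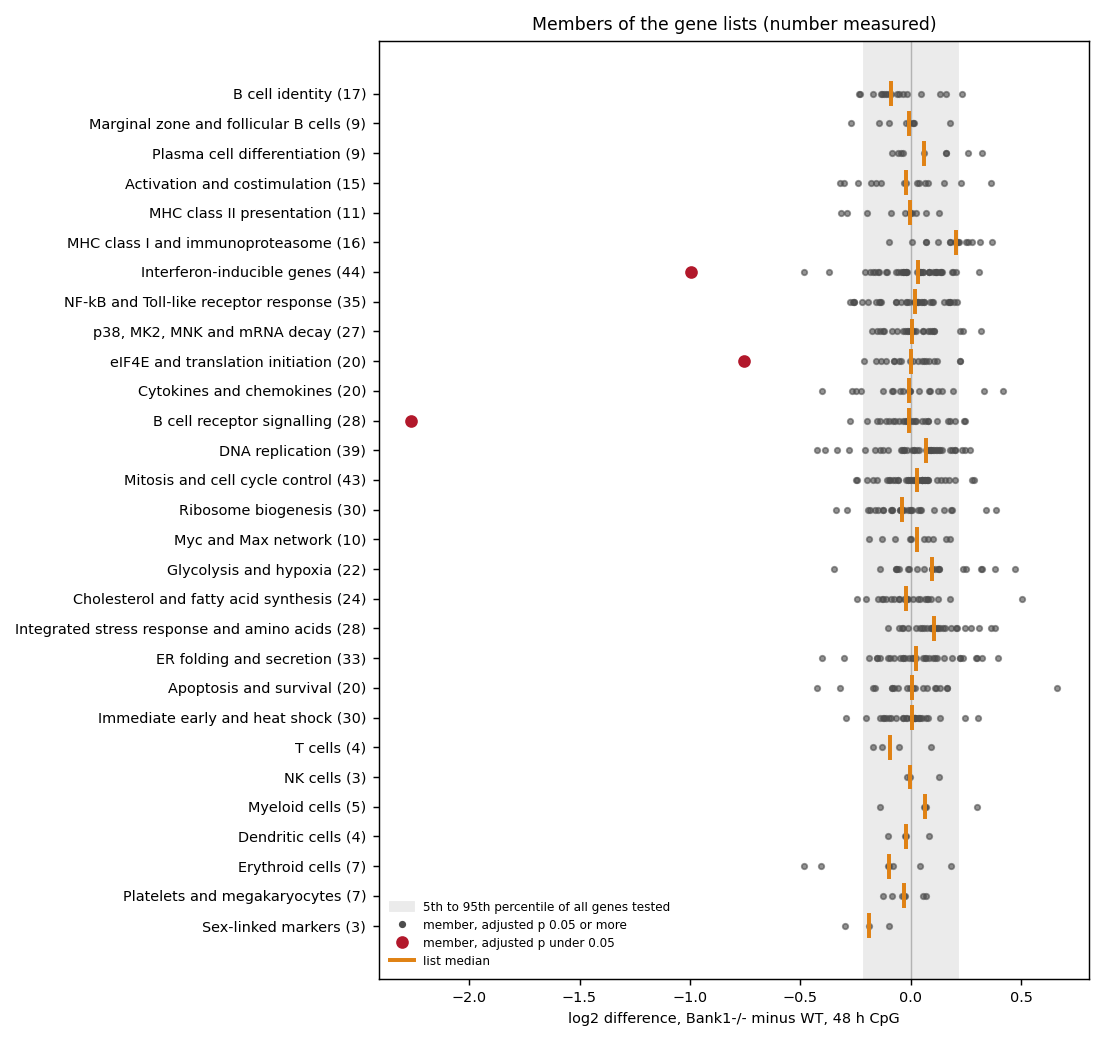
Rows are the 29 gene lists with the number of members measured, points are members at their log2 difference (Bank1-/- minus WT at 48 h, x axis), orange bars are list medians, and the grey band spans the 5th to 95th percentile of all genes, -0.21 to 0.22. The 3 red points that passed are Gbp2, Eif4e and Bank1, and the medians of most lists lie near 0, with that of MHC class I at 0.20.

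Nnt, a mitochondrial transhydrogenase gene that is defective in C57BL/6J mice and intact in some other C57BL/6 stocks, read 6.95, 6.26, 6.37, 6.92 and 6.91 on Bank1-/- arrays and 6.47, 6.17, 6.21, 6.23 and 6.36 on WT arrays. It was detected on 4 Bank1-/- arrays and 2 WT arrays, and the difference of 0.39 did not pass (95% interval -0.37 to 1.15, adjusted p = 1.00). The Y-linked genes Kdm5d, Eif2s3y and Uty were measured in both groups, with differences of -0.30, -0.19 and -0.10 and overlapping arrays.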

How the data were processed

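The authors deposited 2 tables: probe intensity before any normalization, per the file headers, and a second table of log2 intensity whose processing is not given in the sources used here. Per the labels' protocols, each array took amplified RNA made from 150 ng. From the deposited intensity, normexp background correction (offset 50), quantile normalization and log2 were computed in limma 3.58.1 (R 4.3.3). Figures used matplotlib 3.10.9, numpy 2.4.6 and Python 3.11.15. Another 8 columns that match no sample were not used, and 0 pairs of arrays were identical.

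Of 45281 probes 34885 had 1 gene symbol in the platform annotation, 18 several and 10378 none. A probe counted as detected above the 99th percentile of 1287 olfactory receptor probes on that array. Probes detected on 5 or more of 40 arrays were retained, which left 18630 probes, 15529 with 1 symbol. The kept probe of highest mean stood for each of 9483 genes. Raw means per array ran from 145.7 to 539.9, the brightest probe read 37276, and the number of arrays limits precision. Replicates are separate animals or cultures only as far as the labels' word biological says.

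Models in lmFit and eBayes had 1 coefficient for each of 8 groups (32 residual degrees of freedom). Tests were two-sided and adjusted by the Benjamini-Hochberg method over the 9483 genes, and the threshold was an adjusted p of 0.05. The code was tested on simulated data. The samples were not treated as paired by replicate number. At 48 h, correlations of deviations from group means between equal numbers were 0.0831, 0.193, -0.122, -0.304 and 0.0433. Of these numbers 0 of 5 correlated best with their own. Such a check on 5 pairs of arrays cannot tell whether animals or culture days were shared.

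Named were Bank1, Il6, Eif4e, Nnt, all genes past the threshold, the 8 genes of smallest p on each side among those with separate groups that did not pass, and up to 3 members of a described list. The comparison, the 29 lists and the interval of 10 Mb were chosen with earlier results of these data known. Alternatives covered background correction, normalization, the authors' log2 values, filters, probes, arrays in the fit, weights, moderation, covariates, the replicate block and each array left out. Promoters were matched by symbol to RefSeq windows (GRCm38.p6).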

Additional observations from a re-analysis of the deposited data

Results flagged for a closer look

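For 3 of the 38 groups of 5 arrays examined (the 16 genes past the threshold, Il6, Nnt and the mean raw signal, in each genotype), 1 array lay far from the other 4, and it was WT replicate 1 each time: Erdr1 at 11.69, 1700048O20Rik at 8.43 and Rap1gap2 at 7.75. Chance marks about 1 in 20 such groups. The values of these genes without that array stand in the report.

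The genotype difference at 48 h differed by test from that at an earlier time for 12 of the 16 genes. Over all genes this held for 9 against 0 h (0.0949%), 1033 against 6 h (10.9%) and 4 against 24 h (0.0422%). The 16 were chosen with the 48 h arrays that enter each contrast, so the count describes them and tests nothing further. Bank1, Csprs, Ret, Tgm2, Rap1gap2, Slc4a8 and Scamp1 are in it through the 6 h contrast alone. Against 0 h the difference of differences was -2.01 for Erdr1, -1.05 for 1700048O20Rik and -0.65 for Auts2. Against 6 h it was -1.27 for Bank1, -0.85 for 1700048O20Rik, -0.62 for Auts2, 0.74 for Csprs, 0.47 for Ret, 0.51 for Tgm2, 0.45 for Rap1gap2, 0.73 for Slc4a8 and 0.53 for Scamp1, and none of these 9 passed in limma with array brightness as a covariate. Against 24 h it was 1.03 for Gbp2b, -2.07 for Erdr1, -1.11 for 1700048O20Rik and 1.08 for Eif4e.

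Among 3101 kept probes without a single gene symbol, which the gene-wise comparison leaves out, 5 passed the threshold in a limma fit of all 18630 kept probes. ILMN_3129372 read 9.69 ± 0.11 on Bank1-/- arrays and 10.38 ± 0.40 on WT arrays (difference -0.69, adjusted p = 0.00481). ILMN_2537327 read 7.27 ± 0.16 on Bank1-/- arrays and 7.85 ± 0.26 on WT arrays (difference -0.58, adjusted p = 0.0497). On the higher side ILMN_2420817 differed by 0.65, ILMN_2523841 by 0.59 and ILMN_1239211 by 0.42. Which genes these probes report is not analysed here.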

How the results depend on the processing

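Over 23 alternatives, Gbp2b, Bank1, Erdr1, 1700048O20Rik, Auts2 and Eif4e passed in all, while the other 10 genes each lost the call in 1 to 13. The count of 16 genes became 7 with median scaling, 28 without Bank1-/- 0 h replicate 5 in the shared spread and 56 with array weights, and 10 to 16 with 1 array at 48 h left out (lowest without Bank1-/- replicate 5, 11 without WT replicate 1). The number of genes whose genotype difference at 48 h differed from that at 0 h (9) became 14 without background correction and with the authors' values, 4 with probes detected throughout a 48 h group, 21 with every probe, 28 without Bank1-/- 0 h replicate 5, 164 with array weights and 312 with the erythroid mean as a covariate. Against 6 h (1033) it became 4794 with median scaling, 1808 with every probe, 1841 without Bank1-/- 0 h replicate 5, 3016 with array weights, 32 with array brightness and 2492 with the erythroid mean as a covariate, and 622 to 1076 with 1 array left out (622, 671 and 653 without Bank1-/- replicate 4, WT replicate 1 and WT replicate 4). Against 24 h (4) it became 0 with median scaling, 8 without Bank1-/- 0 h replicate 5 and 27 with array weights. List members outside the neighbourhood of Bank1 that passed (0) became 1 with median scaling, 3 with array weights and 1 with the erythroid mean. With the replicate block 15 genes passed at 48 h, all but Scamp1, and the count against 6 h was 970. Without WT replicate 1 the list median was -0.087 for eIF4E and translation initiation (0.0026 with it). It was -0.031 for cytokines and chemokines (-0.0065 with it) and -0.035 for immediate early and heat shock genes (0.0067 with it). Nnt turned to -0.10 with array brightness as a covariate, and Trit1 and Hes6 to -0.027 and -0.049 with median scaling, none of them past the threshold. With median scaling the median of all genes was -0.24. Of values at earlier times, added as alternatives after seeing the data, the 0 h difference without Bank1-/- 0 h replicate 5 changed sign for Gbp2 (0.28), Tgm2 (0.032), App (0.025), Rap1gap2 (-0.0018) and Il6 (-0.023). With array brightness as a covariate the 6 h difference changed sign for Auts2 (-0.064), Ret (0.0024), Slc4a8 (0.037) and Scamp1 (0.053), and the 48 h minus 6 h difference for Erdr1 (0.16) and Agrn (-0.049), none past the threshold. The causes were not tested. The raw brightness difference between the groups, -75.4 in mean signal, was -8.56 in median signal, an alternative chosen after seeing the data. Probes near background limit Gbp2b in WT cells, Eif4e in Bank1-/- cells, and Ret and Auts2 before 48 h.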

Other observations

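Metabolic, growth, early-response, class II and B cell subset genes not described above gave 0 calls in limma at 48 h, with 6 members at an unadjusted p under 0.05 over the 7 lists. The lists had 9 to 30 measured members each. Over all genes 0.169% passed and 2.74% had such an unadjusted p, so the 0 calls do not set these lists apart. Glycolysis and hypoxia genes (22 measured) had 14 positive and 8 negative differences with a median of 0.10, and Vegfa, the endothelial growth factor, read 8.62 ± 0.19 on Bank1-/- arrays and 8.30 ± 0.23 on WT arrays (SD, n = 5 each). Cholesterol and fatty acid synthesis (24 measured) had 10 positive and 14 negative differences, and Srebf2, the regulator of sterol synthesis, differed by 0.18. Of 30 ribosome biogenesis genes 11 had positive and 19 negative differences, and Mybbp1a and Nop58, both nucleolar proteins, differed by 0.34 and -0.34. Myc was near background, at 6.44 ± 0.16 on Bank1-/- arrays and 6.26 ± 0.08 on WT arrays (SD, n = 5 each). Immediate early and heat shock genes (30 measured) had a median of 0.0067, with Atf3 at 8.53 ± 0.35 on Bank1-/- arrays and 8.23 ± 0.18 on WT arrays (SD, n = 5 each). MHC class II presentation (11 measured) had a median of -0.0056, and Ctss, the protease that trims the invariant chain, differed by -0.32. Among 9 genes of marginal zone and follicular B cells, the follicle homing receptor Cxcr5 differed by -0.27 and the lipid-presenting Cd1d1 by -0.15.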
